A study of Gallus gallus with 16 samples.

Results

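The lines compared here were chickens of low residual feed intake (LRFI) and chickens of high residual feed intake (HRFI), taken at 35 days of age, with duodenum as the tissue. The comparison held 8 of the 16 arrays of the study, chosen by their labels alone: 4 LRFI arrays and 4 HRFI arrays of day 35. The other 8 arrays hold the same lines at day 42, again 4 LRFI and 4 HRFI, and serve here as a second set of samples. Both lines came from a population selected in opposite directions for this trait, and no drug, diet or mutation distinguishes the groups in the labels. The labels name no sex, hatch or pen and do not say whether each array came from a separate bird. The p-values therefore reflect how the 16 arrays vary, and some of that variation may be technical. All 38439 probe sets that are not controls were tested, of which 27168 carried 1 gene symbol, for 13009 genes. Values are log2 levels, so that a difference of 1 is a 2-fold difference, and every difference is LRFI minus HRFI.

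Residual feed intake compares what a bird ate with the intake predicted from its weight and growth, and a bird with a low value eats less for the same growth. The duodenum receives bile and pancreatic juice, digests peptides and sugars at the brush border of its enterocytes, and takes up amino acids, fat, calcium, iron and carotenoids. Its epithelium is renewed from dividing crypt cells, makes much protein for the membrane and for secretion, and holds lymphocytes, macrophages and, when inflamed, heterophils, which are the avian counterpart of neutrophils.

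The arrays read as small intestine. The mean of the 8 enterocyte markers measured of 9 lay between 12.65 and 12.96 on the LRFI arrays, against 12.53 to 12.77 on the HRFI arrays, and APOA1, a lipoprotein of the enterocyte, averaged 14.60 in LRFI and 14.54 in HRFI. The segment itself was checked only through GATA4, a factor of the proximal gut, which averaged 6.24 in LRFI and 6.10 in HRFI. HRFI replicate 3 carried RNA of pancreatic acinar cells, whose gland sits inside the loop of the duodenum. The mean of the 9 acinar markers measured of 12 was 4.55 to 5.71 on the LRFI arrays, against 13.89 on that array and 4.60 to 5.17 on the other HRFI arrays. Apart from PLA2G1B and AMY2A, no marker of that list read above 6.49 on the other 7 arrays. Results are therefore also given without HRFI replicate 3. The 3′ probe set of actin exceeded the 5′ one, a sign of shortened RNA or cDNA, by 1.13 and 1.48 on LRFI replicates 3 and 4 and by 1.83 and 2.07 on HRFI replicates 2 and 3. On the other day 35 arrays, LRFI replicates 1 and 2 and HRFI replicates 1 and 4, that difference lay between 0.21 and 0.29. Its part in the results below was not tested except where a value without these arrays is given.

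At the threshold of 0.05 on the adjusted p (limma, Benjamini-Hochberg over all 38439), 0 probe sets passed, and the smallest adjusted p was 0.149. An unadjusted p under 0.05 was found for 2561 probe sets (6.66%), where 1922 would fall below it by chance if nothing differed and probe sets were independent. Of the 2561, 1093 (2.84%) had the higher mean in LRFI and 1468 (3.82%) the lower. Which direction held more of them depended on the scaling: with each array centred on its median, 1364 were higher and 1175 lower. Without HRFI replicate 3, 0 probe sets passed and 2129 (5.54%) had an unadjusted p under 0.05, 852 higher (2.22%) and 1277 lower (3.32%). The 4 LRFI arrays did not overlap the 4 HRFI arrays in 1104 probe sets (2.87%), with LRFI above in 382 (0.994%) and below in 722 (1.88%). Chance alone would separate 4 arrays from 4 in 2.86% of probe sets. A lack of overlap, given for many genes below, is therefore a description and not by itself a sign of a line difference.

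Leaving out 1 array at a time let a few probe sets pass, 5 at most. Without LRFI replicate 1 they included EXFABP and SAA, without LRFI replicate 4 SERPINB10B, without HRFI replicate 2 HYOU1 and MYBL1, and without HRFI replicate 4 MHCY4. For each of these genes the array left out was the one of its line nearest to the other line. Passing in such a fit is therefore no support for a line difference. Every gene below is described as not passing in the comparison of 4 against 4 arrays. The other probe sets of a gene are given for some genes only, so their absence from a sentence does not mean that they agreed. In these bulk samples, fewer cells of a type and less RNA per cell cannot be told apart.

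With 1 probe set for each of the 13009 genes, the one with the highest mean over all 16 arrays, 523 genes (4.02%) had an unadjusted p under 0.05 with the higher mean in LRFI and 428 (3.29%) with the lower. LRFI lay above HRFI without overlap in 161 genes (1.24%) and below in 196 (1.51%). The higher mean was in LRFI in 49.8% of genes, and the median difference over all genes was −0.001. Without HRFI replicate 3, 2.61% of genes had an unadjusted p under 0.05 with the higher mean and 3.12% with the lower. These shares are the background for the counts of gene lists that follow. Some counts are also given without the 5 arrays of the study whose actin difference exceeded 1. At day 35 this leaves only LRFI replicates 1 and 2 against HRFI replicates 1 and 4. In that fit 2641 of 38439 probe sets had an unadjusted p under 0.05, 1265 of them higher in LRFI, and no share by gene was taken. The lists of mitosis, endoplasmic reticulum chaperones, heat shock proteins and DNA replication had medians from 0.16 to 0.34. Lists of other cells and structures also lay above 0: 33 of 38 fibroblast and matrix genes (median 0.18) and 14 of 16 genes of enterocyte structure (median 0.16) had the higher mean in LRFI, with 2 genes at an unadjusted p under 0.05 in each. Their medians were 0.10 and 0.08 without HRFI replicate 3. Whether they move with the chaperone and division genes was not tested. The 8 lists of nutrient uptake had medians from −0.12 to 0.05.

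**Figure D1:**
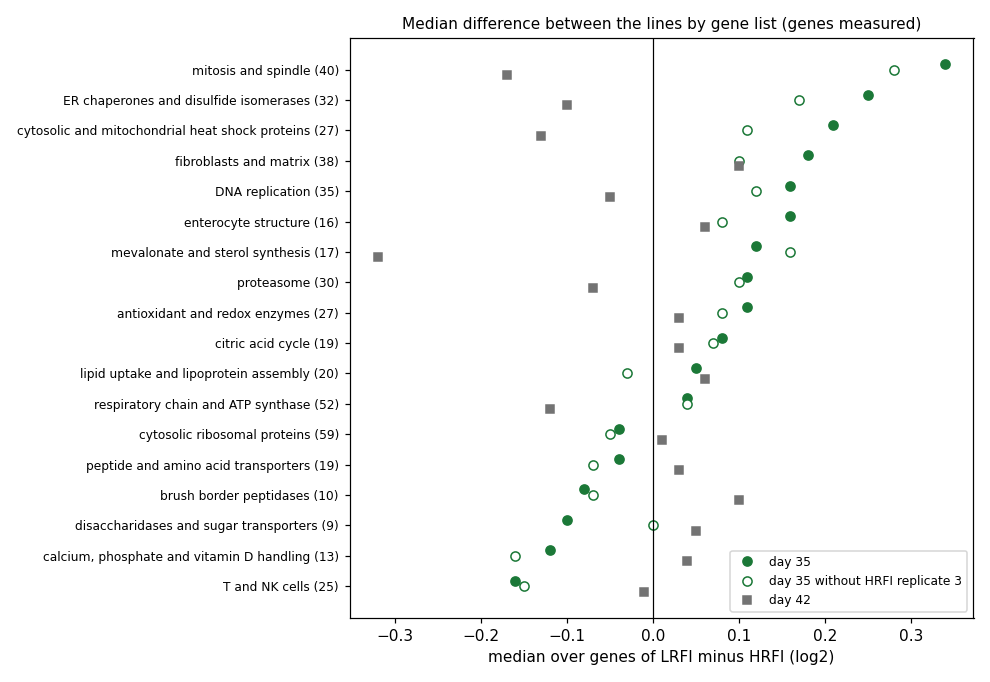
Median difference between the lines, LRFI minus HRFI on the log2 scale, over the genes measured in each of 18 lists (number of genes in brackets). Filled circles are day 35, open circles day 35 without HRFI replicate 3, and grey squares day 42. Mitosis (0.34), endoplasmic reticulum chaperones (0.25) and heat shock proteins (0.21) lie to the right at day 35 and to the left of 0 at day 42.

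Chaperones of the endoplasmic reticulum (ER), which fold proteins bound for the membrane and for secretion, had higher means in LRFI in 30 of 32 genes. The median difference was 0.25, and 11 of the 32 had an unadjusted p under 0.05, all 11 higher. HYOU1, a large ER chaperone that works with HSPA5, read 9.21, 9.38, 9.20 and 9.48 on the LRFI arrays, against 8.68, 8.96, 8.59 and 8.50 on the HRFI arrays. The lines did not overlap, and the difference of 0.63 (SE 0.10, adjusted p = 0.314) was 0.60 without HRFI replicate 3. Its other probe set differed by 0.50.

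CALR, the calcium-binding chaperone calreticulin, read 9.01, 9.31, 8.99 and 8.81 in LRFI, against 8.63, 8.39, 7.94 and 8.64 in HRFI. All 4 LRFI arrays were again above all 4 HRFI arrays, by 0.63 on average and by 0.48 without HRFI replicate 3. HSPA5, the master chaperone of the unfolded protein response, read 12.29, 12.49, 11.97 and 12.23 in LRFI, against 11.89, 12.09, 11.27 and 11.65 in HRFI. Here LRFI replicate 3 fell below HRFI replicate 2, and HRFI replicate 3 was lowest of the 8.

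SDF2L1, an ER protein induced with the chaperones, differed by 0.52, with 6.24 ± 0.42 in LRFI and 5.72 ± 0.24 in HRFI (SD, n = 4 each). DNAJB11, an ER co-chaperone, differed by 0.47, SEC61A1, the channel through which new proteins enter the ER, by 0.30, and PDIA4, a disulfide isomerase, by 0.32. P4HB, the most common disulfide isomerase, had means of 13.55 in LRFI and 13.32 in HRFI. HRFI replicate 3 had the lowest list mean of the 8 arrays (9.16), where the LRFI arrays had 9.52 to 9.80 and the other HRFI arrays 9.42 to 9.49. Without it the median difference was 0.17 and 5 of the 32 had an unadjusted p under 0.05. Without the 5 arrays of the study whose actin difference exceeded 1, the median was 0.29, with 13 of the 32. When the actin difference entered the fit as a covariate, the median was 0.18, with 12 of the 32.

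A pair of further genes of this compartment had small p without HRFI replicate 3. TRAM1L1, which helps new proteins across the ER membrane, read 10.46, 10.58, 10.67 and 10.51 in LRFI, against 10.03, 10.18, 10.35 and 10.17 in HRFI. The 2 sets of arrays did not overlap, and the difference was 0.37 with all arrays and 0.43 without HRFI replicate 3. QSOX1, a secreted enzyme that forms disulfide bonds, differed by 0.39 with all arrays and 0.46 without that array, also without overlap. SEC24D, a coat protein of export from the ER, went the other way without overlap. It differed by −0.32 with all arrays and −0.31 without HRFI replicate 3, at low levels of 3.83 in LRFI and 4.15 in HRFI. Of 15 genes of ER-associated degradation, which returns misfolded proteins to the cytosol, 3 had an unadjusted p under 0.05 with the higher mean and 1 with the lower, and without HRFI replicate 3 the higher count was 1. Among the 3 were UBE2J1, a ubiquitin-conjugating enzyme of the ER, higher by 0.30, and VCP, the ATPase that pulls proteins out of the membrane, higher by 0.24. Both had LRFI arrays above all HRFI arrays, while the other probe set of VCP differed by 0.02. SEL1L, the scaffold of the same machinery, had means of 9.96 in LRFI and 9.67 in HRFI, while its other probe sets differed by −0.06 and 0.00.

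**Figure D2:**
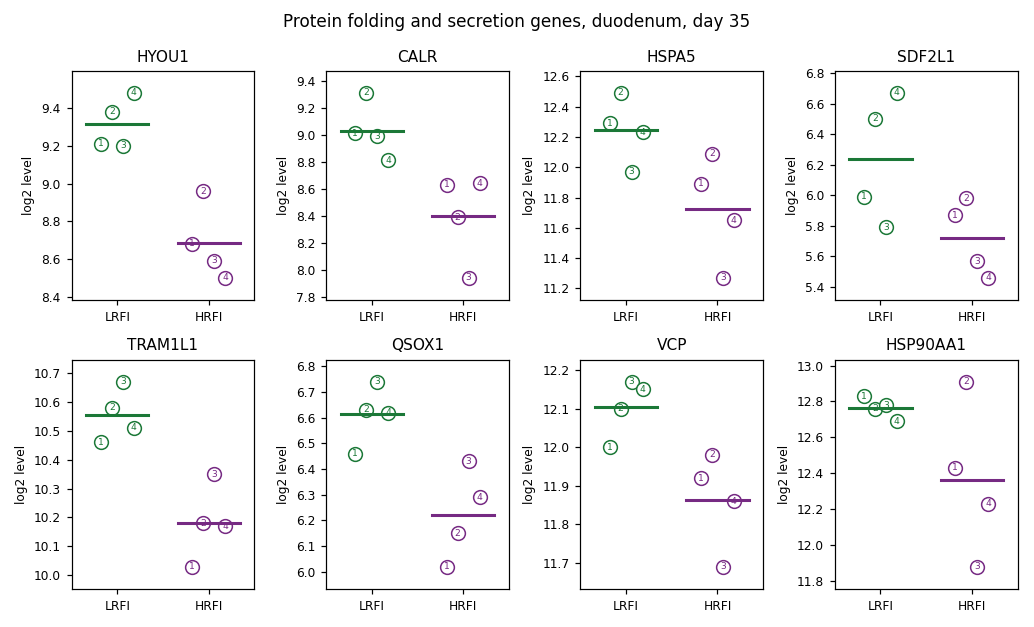
Log2 level of 8 genes of protein folding and secretion on each day 35 array, LRFI at the left and HRFI at the right of each panel, with the replicate number in the circle and the mean as a bar. The lines do not overlap for HYOU1, CALR, TRAM1L1, QSOX1 and VCP, and HRFI replicate 3 is the lowest array for CALR, HSPA5, VCP and HSP90AA1.

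Heat shock proteins, which fold proteins in the cytosol and mitochondria, had higher means in LRFI in 22 of 27 genes, with a median difference of 0.21. An unadjusted p under 0.05 was found for 6 with the higher mean and 1 with the lower. HSP90AA1 read 12.83, 12.76, 12.78 and 12.69 in LRFI, against 12.43, 12.91, 11.88 and 12.23 in HRFI. The LRFI arrays lay close together and within the HRFI range. HSPH1, a cytosolic co-chaperone, read 6.46 to 7.39 in LRFI, against 5.13 on HRFI replicate 3 and 6.22 to 7.29 on the other HRFI arrays. Its difference was 0.74 with that array and 0.36 without it, and its other probe set differed by −0.05. HSPA4L, of the same family, differed by 0.57 and 0.33 in these fits, and AHSA1, which activates HSP90, by 0.31 and 0.18 (its other probe set by −0.14).

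In the mitochondrion, HSPA9 differed by 0.21 (0.23 without HRFI replicate 3) and HSPD1 by 0.32 (0.28 without it). CRYAB, a small heat shock protein, was the 1 member with an unadjusted p under 0.05 and the lower mean in LRFI, 4.94 ± 0.24, against 5.37 ± 0.24 in HRFI (SD, n = 4 each). Without HRFI replicate 3 the list's median was 0.11 and 1 of the 27 had an unadjusted p under 0.05 with the higher mean.

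Proteasome subunits, which degrade tagged proteins, had higher means in 26 of 30 genes, with a median difference of 0.11. An unadjusted p under 0.05 was found for 7, all higher. PSMA4, of the outer ring of the core, read 11.87, 11.85, 11.95 and 12.10 in LRFI, against 11.78, 11.80, 11.76 and 11.78 in HRFI. The difference of 0.16 was small, but the lines did not overlap. PSMA6 and PSMA2, of the same ring, differed by 0.26 and 0.25, while the other probe set differed by −0.02 for PSMA6 and by 0.00 for PSMA2. PSMD3, of the regulatory cap, differed by 0.42 and by 0.29 without HRFI replicate 3. Without that array 2 of the 30 had an unadjusted p under 0.05.

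The 59 ribosomal proteins measured had higher means in LRFI in 9 and lower in 50, with a median of −0.04. None had an unadjusted p under 0.05, and single differences lay between −0.18 and 0.09.

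Genes of mitosis and of DNA replication had higher means in LRFI, with the largest list levels on LRFI replicates 3 and 4. Of 40 genes of mitosis and the spindle, 38 had the higher mean, the median difference was 0.34, and 12 had an unadjusted p under 0.05, all higher. The list's mean level was 7.08, 7.15, 7.83 and 7.71 on the LRFI arrays, against 7.00, 7.09, 6.92 and 7.42 on the HRFI arrays. Replicates 3 and 4 of LRFI stood above all the other 6 arrays, and replicates 1 and 2 lay within the HRFI range. Those 2 arrays are also the LRFI arrays with an actin difference over 1.

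ANLN, which builds the cleavage furrow, read 6.57, 6.42, 7.74 and 7.73 in LRFI, against 6.12, 6.36, 6.09 and 6.41 in HRFI. TPX2, a spindle assembly factor, read 8.47, 8.46, 9.64 and 9.50 in LRFI, against 7.90, 8.28, 7.99 and 8.69 in HRFI. Both showed the same step between the first and the last pair of LRFI arrays. NUF2, part of the kinetochore, differed more evenly, with 7.57, 7.69, 7.77 and 8.37 in LRFI, against 7.27, 6.54, 7.16 and 7.29 in HRFI, a difference of 0.78 (SE 0.21, adjusted p = 0.597). The 2 other probe sets of NUF2 differed by −0.15 and 0.75. AURKB, a mitotic kinase, differed by 0.62 and SMC2, which condenses chromosomes, by 0.53.

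DNA replication genes had higher means in 30 of 35, with a median of 0.16 and 6 with an unadjusted p under 0.05, all higher. RRM2, which makes deoxynucleotides, read 9.10, 8.96, 9.38 and 9.69 in LRFI, against 8.65, 8.69, 8.66 and 8.87 in HRFI, with no overlap. CDC45, which opens the DNA for copying, also did not overlap and differed by 0.62. TK1 (0.45), which salvages thymidine, and FEN1 (0.42), which trims DNA flaps, did overlap. The 25 cyclins and regulators of the G1 and S phases showed no such step, with list levels of 7.58, 7.69, 7.63 and 7.59 in LRFI, against 7.55, 7.55, 7.40 and 7.58 in HRFI. Of these, 16 had the higher mean, the median was 0.06, and 5 had an unadjusted p under 0.05, all higher; with HRFI replicate 3 left out, 12 of the 25 were higher. Among them, E2F8 and CCNE2 differed by 0.46 each and E2F1 by 0.36; the 2 other probe sets of E2F8 differed by −0.03 and 0.02.

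Without HRFI replicate 3 the mitosis list kept a median of 0.28, with 4 of the 40 at an unadjusted p under 0.05 and higher. Without the 5 arrays with an actin difference over 1, which leaves LRFI replicates 1 and 2 against HRFI replicates 1 and 4, the median turned to −0.11, with 10 of the 40 higher and 0 at an unadjusted p under 0.05 in that direction. The replication list turned to −0.04. When the actin difference entered the fit as a covariate, with every array in it, the medians were 0.36 and 0.17.

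MYBL1, a transcription factor of the MYB family, had the smallest p of the named genes after HYOU1. It read 5.46, 5.48, 5.80 and 5.63 in LRFI, against 4.70, 5.20, 4.79 and 4.85 in HRFI. All LRFI arrays, replicates 1 and 2 included, lay above all HRFI arrays, and the difference was 0.71 (SE 0.12, adjusted p = 0.366). Its 5 other probe sets differed by −0.20 to 0.12. KIF20B, a motor of late mitosis, read 3.88 to 4.32 in LRFI and 3.56 to 3.73 in HRFI, near the 25th percentile of all values (3.75).

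**Figure D3:**
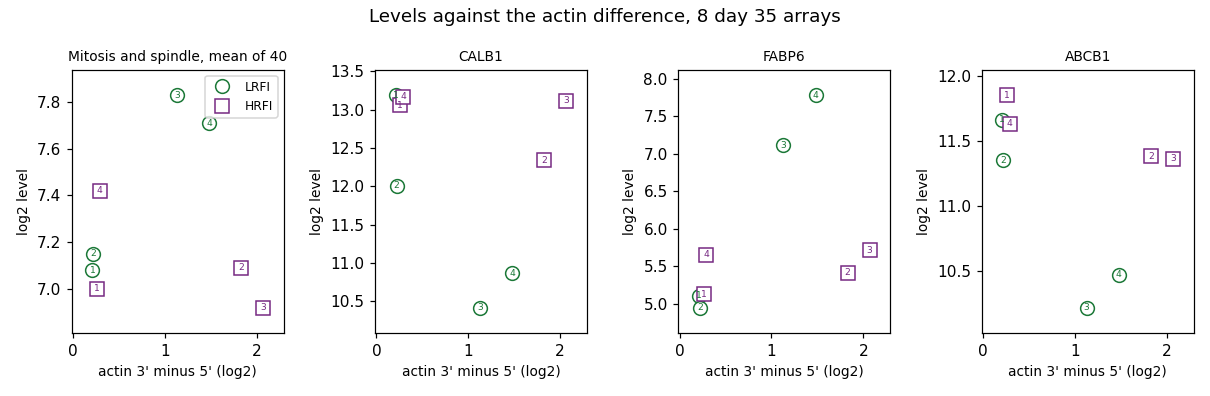
Log2 level on each of the 8 day 35 arrays (circles LRFI, squares HRFI, numbers the replicates) against the 3′ minus 5′ difference of actin on the same array. LRFI replicates 3 and 4 have high mitosis genes (7.83 and 7.71) and FABP6 and low CALB1 and ABCB1. HRFI replicates 2 and 3 have actin differences of 1.83 and 2.07, and CALB1 is lower on HRFI replicate 2 (12.34) than on the other HRFI arrays.

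LRFI replicates 3 and 4 stood apart in absorptive genes too. CALB1, the calcium shuttle calbindin of the enterocyte, read 13.19, 12.01, 10.42 and 10.87 in LRFI, against 13.06, 12.34, 13.12 and 13.17 in HRFI. LRFI replicate 1 was the highest of all 8 arrays while replicates 3 and 4 were the lowest, and the difference was −1.30 (SE 0.43, adjusted p = 0.662). The 12 other genes of calcium, phosphate and vitamin D handling had no unadjusted p under 0.05, and 12 of the 13 had the lower mean in LRFI, with a median of −0.12. ABCB1, an efflux pump of the brush border, read 11.66, 11.35, 10.22 and 10.47 in LRFI, against 11.85, 11.38, 11.36 and 11.63 in HRFI. FABP6, the bile acid binding protein of the lower intestine, read 5.11, 4.95, 7.11 and 7.78 in LRFI, against 5.13, 5.41, 5.71 and 5.65 in HRFI. Its higher mean in LRFI (0.76, limma, adjusted p = 0.823) came from replicates 3 and 4, and without the 5 arrays the difference turned to −0.36. The 3 other probe sets of FABP6 differed by −0.17 to 0.03. SLC51B, a bile acid exporter at the base of the cell, read 10.50, 10.40, 11.45 and 11.30 in LRFI, against 10.26, 9.33, 9.14 and 9.38 in HRFI. It was highest on the same arrays, but all 4 LRFI arrays lay above all HRFI arrays, by 1.38 on average and 1.25 without HRFI replicate 3.

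For the enzymes and carriers of peptide and sugar uptake, the counts depended on the arrays used. None of 10 brush border peptidases and none of 9 disaccharidases and sugar transporters had an unadjusted p under 0.05, and the list medians were −0.08 and −0.10. ANPEP, an aminopeptidase, averaged 12.56 in LRFI and 12.30 in HRFI. SI, sucrase-isomaltase, read 13.27, 13.38, 12.60 and 12.36 in LRFI, against 13.13, 12.98, 13.08 and 12.93 in HRFI, so that the LRFI arrays lay on both sides of the HRFI arrays. SLC5A1, the sodium-glucose cotransporter, differed by −0.13 (SE 0.17), while its 2 other probe sets differed by 0.12 and 0.14. Without the 5 arrays with an actin difference over 1 these medians were 0.26 and 0.20, and 3 of the 10 peptidases had an unadjusted p under 0.05, all higher. Among 19 peptide and amino acid transporters, SLC15A1, the peptide carrier PEPT1, had 13.66, 13.78, 13.38 and 13.77 in LRFI, against 13.24, 13.29, 13.65 and 13.35 in HRFI. HRFI replicate 3 lay within the LRFI range, and the difference was 0.26 with it and 0.35 without it. SLC16A10, an aromatic amino acid carrier, differed by −0.24.

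CPO, a carboxypeptidase of the brush border, was not in that list and was named for the size of its difference. It read 9.70, 7.74, 9.56 and 6.78 in LRFI, against 10.58, 9.78, 10.24 and 11.08 in HRFI. The lines did not overlap, and the difference was −1.98 (SE 0.56, adjusted p = 0.61) with all arrays and −2.03 without HRFI replicate 3. At day 42 the line difference was 1.41.

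Of 20 genes of lipid uptake and lipoprotein assembly, 2 had the higher mean in LRFI with an unadjusted p under 0.05 and 1 the lower, and the median was 0.05. PLIN2, which coats lipid droplets, read 10.61, 9.48, 9.91 and 9.84 in LRFI, against 9.23, 9.10, 8.27 and 9.16 in HRFI. MTTP, which loads fat onto lipoproteins, read 9.93, 9.84, 9.60 and 9.58 in LRFI, against 9.33, 9.40, 8.67 and 8.99 in HRFI. For both, LRFI lay above HRFI on all arrays, and HRFI replicate 3 was the lowest. The differences were 1.02 and 0.64, and 0.80 and 0.50 without that array. SCARB1, a receptor for carotenoids and cholesterol, differed by −0.42, with its low values on replicates 3 (10.46) and 4 (10.13). FABP2, the main fatty acid binding protein, averaged 11.50 in LRFI and 11.29 in HRFI.

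Members of the retinoid pathway, which turns carotenoids into vitamin A and carries it, differed in both directions. Of 18 genes, 2 had an unadjusted p under 0.05 with the higher mean and 3 with the lower. RBP4, which carries retinol in blood, read 8.50, 8.27, 7.74 and 8.89 in LRFI, against 6.38, 6.39, 7.52 and 5.17 in HRFI. The lines did not overlap, HRFI replicate 3 was the HRFI array nearest to LRFI, and the difference was 1.98 (SE 0.39, adjusted p = 0.479) with it and 2.37 without it. TTR, which travels with RBP4, went the other way, with 7.99, 8.02, 6.42 and 7.81 in LRFI, against 10.09, 9.28, 9.11 and 8.39 in HRFI. No LRFI array reached the lowest HRFI array, and the difference was −1.66; the other probe set showed none (0.00). RBP2, the retinol binding protein inside the enterocyte, was higher by 0.19 without overlap. BCO1, which cleaves β-carotene, differed by −0.31, and DHRS3, which reduces retinal, by −0.54, with its lowest values on LRFI replicates 3 and 4.

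IDH3B, a subunit of the NAD-linked isocitrate dehydrogenase, read 11.16, 11.02, 10.78 and 10.74 in LRFI, against 10.18, 10.46, 10.17 and 10.57 in HRFI. It did not overlap and differed by 0.58 (SE 0.11, adjusted p = 0.366), while its other probe set differed by −0.07 and no other of the 19 citric acid cycle genes had an unadjusted p under 0.05. PGD, of the pentose phosphate pathway that supplies NADPH, read 11.91, 12.08, 12.14 and 11.99 in LRFI, against 11.82, 11.41, 11.18 and 11.47 in HRFI, again without overlap. LDHA, lactate dehydrogenase, had means of 13.38 in LRFI and 12.99 in HRFI, and FBP1, an enzyme of glucose synthesis, 12.15 in LRFI and 12.63 in HRFI.

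Of 15 genes of mitochondrial fatty acid oxidation and ketone synthesis, 4 had an unadjusted p under 0.05 with the higher mean and 1 with the lower. The higher count was 1 without HRFI replicate 3. The 4 included ACAT1 (0.44), HADHB (0.32) and CPT1A (0.65, at levels of 4.61 in LRFI and 3.95 in HRFI, while its other probe sets differed by −0.18 and −0.06). ETFA, which passes electrons from this pathway to the respiratory chain, read 7.29, 7.00, 7.34 and 7.17 in LRFI, against 7.73, 7.55, 7.43 and 7.52 in HRFI, a difference of −0.36 without overlap, where its other probe set differed by 0.05. Of 52 subunits of the respiratory chain and ATP synthase, 36 had the higher mean, the median was 0.04, and 1 (CYCS, cytochrome c, 0.20) had an unadjusted p under 0.05. That count takes 1 probe set per gene. A probe set of ATP5G1, an ATP synthase subunit, was not counted there and had a small p with the lower mean. It differed by −0.38 with overlap, and by −0.40 without HRFI replicate 3.

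Among 27 antioxidant genes the median was 0.11, with 22 higher, and without the 5 arrays with an actin difference over 1 it was 0.03, with 16 higher. GSR, which keeps glutathione reduced, read 9.97, 10.02, 10.23 and 9.92 in LRFI, against 9.59, 9.72, 9.36 and 9.65 in HRFI. TXNRD2, the mitochondrial thioredoxin reductase, read 6.97, 7.10, 7.11 and 7.14 in LRFI, against 6.71, 6.76, 6.85 and 6.56 in HRFI. Both were higher in LRFI without overlap, while the 2 other probe sets of TXNRD2 differed by no more than 0.08. GPX4, which reduces lipid peroxides, had the lower mean, 12.67 in LRFI and 13.11 in HRFI, with overlap. Of the enzymes that modify foreign compounds, CYP1A1 differed by 0.70, GSTT1 by 0.59 and MGST1 by 0.21. Their lists were less one-sided. The median was 0.01 for 20 oxidases and esterases, with 11 higher, and 0.07 for 23 conjugating enzymes and efflux pumps, with 18 higher. An unadjusted p under 0.05 was found for 2 higher and 0 lower in the first list, and for 2 higher and 1 lower in the second.

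Innate defence genes held wide differences between the lines, and the LRFI arrays that carried them were not the same for every gene. The list medians were near 0 (−0.01 for 19 antimicrobial peptides and lysozymes, −0.01 for 17 acute phase genes, 0.00 for 21 chemokines and receptors and 0.01 for 41 cytokines and regulators). Yet 7, 4, 3 and 7 of their members had an unadjusted p under 0.05 with the higher mean, and 0 with the lower. The background for these counts is the 4.02% of genes higher and 3.29% lower given above. The higher counts were 6, 4, 3 and 4 without HRFI replicate 3, and without the 5 arrays with an actin difference over 1 they were 0, 2, 2 and 3.

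The first set comprised lysozymes and acute phase proteins and was highest on LRFI replicate 3, followed by replicate 4 or, for SAA, replicate 2. LYG2, a goose-type lysozyme, read 8.32, 10.79, 12.06 and 11.61 in LRFI, against 8.49, 7.17, 6.51 and 9.63 in HRFI. LRFI replicate 1 lay within the HRFI range, and the difference was 2.75 (SE 0.78, adjusted p = 0.605) with all arrays and 2.27 without HRFI replicate 3. AVD, the biotin-binding protein avidin, which chicken tissues make when inflamed, read 8.41, 9.63, 11.98 and 11.29 in LRFI, against 8.10, 7.37, 8.22 and 8.31 in HRFI. The lines did not overlap, though LRFI replicate 1 lay just above the highest HRFI array.

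EXFABP, a lipocalin that binds bacterial siderophores, read 7.32, 8.73, 9.77 and 9.24 in LRFI, against 7.04, 7.55, 7.04 and 6.78 in HRFI. SAA, serum amyloid A, read 5.84, 8.75, 9.30 and 7.78 in LRFI, against 6.43, 5.80, 6.99 and 5.30 in HRFI. In both, LRFI replicate 1 was the array that overlapped. Without it EXFABP differed by 2.14 (SE 0.21) and SAA by 2.48 (SE 0.36). The smaller p of that fit is no support, because it leaves out the array that overlapped. LYGL, another lysozyme, was highest on LRFI replicate 3 (11.38), but HRFI replicate 4 (8.67) stood above LRFI replicates 1 and 2.

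The second set, proteins that heterophils store in their granules or that bone marrow makes, was high on LRFI replicates 1 and 3. AvBD1, an avian β-defensin, read 9.65, 5.91, 9.49 and 7.25 in LRFI, against 6.78, 6.26, 5.65 and 6.98 in HRFI. LECT2, a granule protein of chicken myeloid cells, read 10.69, 6.54, 10.48 and 8.67 in LRFI, against 7.35, 6.61, 5.98 and 7.57 in HRFI. LRFI replicate 2 lay within the HRFI range for both. AvBD6 read 8.22, 5.02, 7.48 and 5.85 in LRFI, and 5.20 to 5.31 on all HRFI arrays. AvBD7 and the cathelicidin CATH1 had the same order of LRFI arrays, with 9.88 and 10.04 on replicate 1 and 5.88 and 6.29 on replicate 2. AvBD4 differed by 0.56 at a low level.

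SERPINB10B, a nuclear serpin of mature granulocytes and red cells in chicken, followed in part: 5.98, 5.39, 6.01 and 4.37 in LRFI, against 4.17, 3.94, 3.97 and 4.15 in HRFI. Its lines did not overlap, and the difference was 1.38 (SE 0.25, limma, adjusted p = 0.366), or 1.73 without LRFI replicate 4, the LRFI array nearest to HRFI. Red cell genes were also highest on LRFI replicates 1 and 3. HBAD, a haemoglobin chain, read 12.08, 9.79, 11.28 and 10.13 in LRFI, against 9.85, 8.25, 8.75 and 8.65 in HRFI, and HBA1 read 13.31, 11.77, 12.44 and 11.66 in LRFI, against 11.96, 10.31, 10.73 and 10.56 in HRFI. HBBR differed by 0.48. Of 12 erythrocyte genes, 4 had an unadjusted p under 0.05 with the higher mean and 1 with the lower. The mean of the 2 red cell markers measured of 5 was 12.70, 10.78, 11.86 and 10.90 in LRFI, against 10.91, 9.28, 9.74 and 9.60 in HRFI. The part of blood in the granule gene differences was not tested.

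The third set, chemokines and inducible regulators, was highest on LRFI replicate 2. IL8L2, a chemokine that draws heterophils, read 6.10, 8.67, 6.98 and 6.09 in LRFI, against 6.16, 4.29, 4.68 and 5.56 in HRFI. IL8L1, its relative, read 6.03, 7.54, 5.89 and 5.46 in LRFI, against 5.85, 4.52, 4.25 and 5.04 in HRFI. SOCS3, which damps cytokine signalling, read 7.99, 10.31, 8.04 and 7.88 in LRFI, against 7.87, 6.83, 7.11 and 7.71 in HRFI. Replicate 2 thus stood far above the other LRFI arrays for SOCS3, while LRFI replicate 4 (7.88) and HRFI replicate 1 (7.87) were almost equal. NFKBIZ, a nuclear regulator of NF-κB, read 11.40 on LRFI replicate 2, with 9.65 to 10.05 on the other LRFI arrays and 9.26 to 9.73 on the HRFI arrays. IL22, an epithelial defence cytokine, read 5.52 on LRFI replicate 2 and 4.41 to 4.53 in HRFI.

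ZC3H12A, an RNase that limits cytokine messages, was steadier, with 4.56, 4.97, 5.05 and 4.93 in LRFI, against 4.40, 4.44, 4.64 and 4.42 in HRFI. CCL4 differed by 0.77 (its other probe set by −0.02) and IL13RA2, a decoy receptor, by 0.41. Of 25 macrophage and granulocyte genes, 16 had the higher mean in LRFI and 9 the lower, with a median of 0.03. An unadjusted p under 0.05 was found for 4, all higher. Without the 5 arrays with an actin difference over 1, 9 were higher and the median was −0.11. In that fit 0 had an unadjusted p under 0.05 with the higher mean and 1 with the lower. Among myeloid genes, PTAFR, the receptor for platelet-activating factor, differed by 0.88 (its other probe sets by −0.09 and −0.01), MMP9, a protease of granules, by 0.67 and LYN, a kinase, by 0.38. The mean of the 6 macrophage and granulocyte markers was 7.00, 7.69, 8.24 and 7.94 in LRFI, against 7.36, 7.36, 7.45 and 7.77 in HRFI. LRFI replicate 1, which was high for the granule proteins, had the lowest of these means. CSF3R, a defining receptor of granulocytes, averaged 5.45 in LRFI and 5.42 in HRFI.

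**Figure D4:**
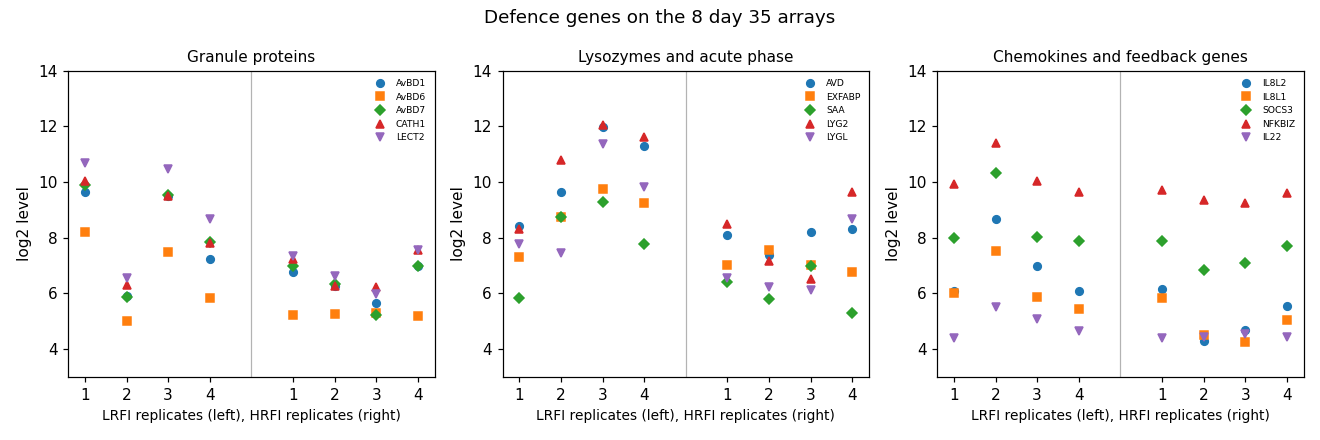
Log2 level of 15 defence genes on the 8 day 35 arrays, LRFI replicates 1 to 4 at the left of each panel and HRFI replicates 1 to 4 at the right. Granule proteins are high on LRFI replicates 1 and 3, lysozymes and acute phase genes are highest on LRFI replicate 3, and chemokines and feedback genes on LRFI replicate 2.

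T cell genes had slightly lower means in LRFI. Of 25 T and natural killer cell genes, 17 were lower, the median was −0.16, and 2 had an unadjusted p under 0.05, both lower. CD3D, of the T cell receptor complex, read 11.57, 11.65, 11.50 and 11.44 in LRFI, against 11.80, 11.45, 12.17 and 12.17 in HRFI. HRFI replicate 2 lay among the LRFI arrays. CD8BP, a CD8 chain, averaged 6.91 in LRFI and 7.30 in HRFI. With HRFI replicate 3 left out the median was −0.15 and 0 of the 25 had an unadjusted p under 0.05.

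Of the antigen presentation genes, DMA, which helps load class II molecules, read 10.91, 11.13, 10.91 and 10.53 in LRFI, against 11.68, 11.23, 11.69 and 11.22 in HRFI. The lines did not overlap, and the difference was −0.58 (SE 0.17, adjusted p = 0.61). MHCY4, a class I-like gene of the MHC-Y region, took 2 separate levels. It read 12.83, 12.66, 11.65 and 11.55 in LRFI, and 6.41, 5.29, 4.89 and 11.96 in HRFI. HRFI replicate 4 was at the LRFI level, and without it the difference was 6.64 (SE 0.33), in a fit that leaves out the array at odds with that difference. Genes of this region differ among birds in sequence and copy number, and a probe set reads low where its probes mismatch the transcript; whether that applies here was not tested. At day 42 the line difference was −0.01, and the arrays of both lines read 11.66 to 11.92. The low level was thus seen only on the HRFI arrays of day 35 other than replicate 4. LY6E, of the interferon response, differed by 1.22 with its lowest value, 9.27, on HRFI replicate 3, and by 0.82 without that array; its 3 other probe sets differed by 0.02 to 0.12.

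Other genes with small p or wide gaps belonged to varied processes. NAPEPLD, which makes N-acylethanolamines, lipid signals that include an appetite-suppressing one in rodents, read 11.45, 12.41, 12.16 and 11.93 in LRFI, against 10.94, 11.35, 11.02 and 11.08 in HRFI. Its other probe set differed by 0.84. CNDP1, a dipeptidase that splits carnosine, differed by 0.65, KCTD20 by 0.62, and CHTOP, an RNA export factor, by 0.57, each without overlap. The 3 other probe sets of CHTOP differed by −0.22 to 0.31. ATP1B3, a subunit of the sodium pump, read 8.67, 9.14, 8.53 and 8.40 in LRFI, against 7.94, 8.02, 7.92 and 8.27 in HRFI. CCNG2, a cyclin of resting cells, read 9.68 to 10.06 in LRFI and 7.98 to 9.08 in HRFI.

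On the lower side, DELE, a mitochondrial stress relay, read 7.04, 7.22, 6.69 and 6.81 in LRFI, against 7.86, 7.39, 7.52 and 7.71 in HRFI. BMP7, a growth factor of the BMP family, read 3.55, 3.46, 3.22 and 3.53 in LRFI, against 4.55, 4.17, 4.01 and 3.95 in HRFI. Both were lower in LRFI without overlap, with differences of −0.68 and −0.73 (limma, adjusted p = 0.476 and 0.479), and BMP7 lay near the bottom of the range of values, where RMA compresses differences. FRS3, an adaptor of growth factor receptors, differed by −0.47, KATNIP, a protein of cilia, by −0.39, and ST3GAL1, a sialyltransferase, by −0.61 (−0.73 without HRFI replicate 3). The other probe sets of BMP7, FRS3, KATNIP and ST3GAL1 differed by less, between −0.18 and 0.07. C15orf62 differed by −0.81, and its 3 other probe sets by −0.94 to −0.68.

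KCNJ15, a potassium channel, read 6.78, 7.06, 5.70 and 6.82 in LRFI, against 8.52, 7.61, 7.33 and 8.41 in HRFI, a difference of −1.38 without overlap. DIO3, which inactivates thyroid hormone, differed by −0.85 at levels of 4.24 in LRFI and 5.09 in HRFI. PGPEP1L differed by −1.17 and PSPH, which makes serine, by −1.09. ADRM1, which was not in the proteasome list above, differed by −1.10. Its levels were 3.72 in LRFI, near the 25th percentile of all values (3.75), and 4.81 in HRFI. The other probe set of ADRM1 differed by 0.16 and that of PSPH by −0.06. Without HRFI replicate 3, KCNMA1, another potassium channel, differed by −0.64 instead of −0.48, CGN, a protein of tight junctions, by −0.56 instead of −0.43, and FBXO3 by −0.53 instead of −0.28 (its other probe set by 0.28 with all arrays).

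The day 42 arrays, which share no sample with those of day 35, show how far these differences recurred in the same lines 7 days later. LRFI replicate 2 of day 42 also carried pancreatic enzyme signal. CTRL, a pancreatic enzyme, read 12.40 there and 7.41 to 7.48 on the other LRFI arrays of day 42. HRFI replicate 4 of day 42 had an actin difference of 1.20. All day 42 differences include both arrays and were not taken without them. Of the 523 genes with an unadjusted p under 0.05 and the higher mean in LRFI at day 35, 200 (38.2%) had the higher mean at day 42, against 46.5% of all genes. Of the 428 with the lower mean at day 35, 210 (49.1%) were lower at day 42, against 53.5% of all genes. An unadjusted p under 0.05 in the same direction at day 42 was found for 10 of the 523 (1.91%, against 2.21% of all genes) and 15 of the 428 (3.5%, against 3.37%). In both directions the share that kept its direction was below that of all genes.

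Several of the named genes had the same direction at both ages, among them those that follow. TCF25, which acts in ribosome quality control, read 6.31, 6.40, 5.84 and 6.34 in LRFI, against 6.87, 7.04, 6.83 and 6.85 in HRFI at day 35, without overlap. Its difference was −0.67 (SE 0.15) at day 35 and −0.59 (SE 0.15) at day 42, again without overlap. KCNJ15 differed by −1.38 and −1.99 at the 2 ages, DMA by −0.58 and −0.49, MTTP by 0.64 and 0.71, GSR by 0.45 and 0.43, and CSNK1E, a clock kinase, by 0.84 and 0.59. Over all 38439 probe sets, LRFI lay above HRFI without overlap at both ages in 4 and below at both ages in 17. SERPINB10B and RBP2 were among the 4, with day 42 differences of 0.18 and 0.13. Chance alone separates the lines in 2.86% of probe sets at each age, and so in some at both ages. The number expected at both ages was not taken, so these counts cannot show whether line differences recurred.

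Others turned. AVD differed by 2.33 at day 35 and −2.46 at day 42, with no overlap of the lines at either age. At day 42 it averaged 8.07 ± 0.50 in LRFI and 10.53 ± 0.51 in HRFI (SD, n = 4 each). HYOU1 differed by 0.63 and −0.19, NUF2 by 0.78 and −0.60, PGD by 0.56 and −0.25, ATP1B3 by 0.65 and −0.33, and IDH3B by 0.58 and −0.13, each without overlap at either age. At day 42 the lines almost touched for HYOU1, with replicate 3 of both lines at 8.91. The same held for IDH3B, with 10.77 on the highest LRFI array and 10.79 on the lowest HRFI array. LYG2 differed by 2.75 and −1.74. The test of the change itself, the interaction of line and age, passed for no probe set (smallest adjusted p 0.0622, and 0.354 for AVD), while 2438 (6.34%) had an unadjusted p under 0.05. The list medians at day 42 were −0.10 for ER chaperones, −0.13 for heat shock proteins and −0.17 for mitosis, where the median of all genes was −0.012.

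**Figure D5:**
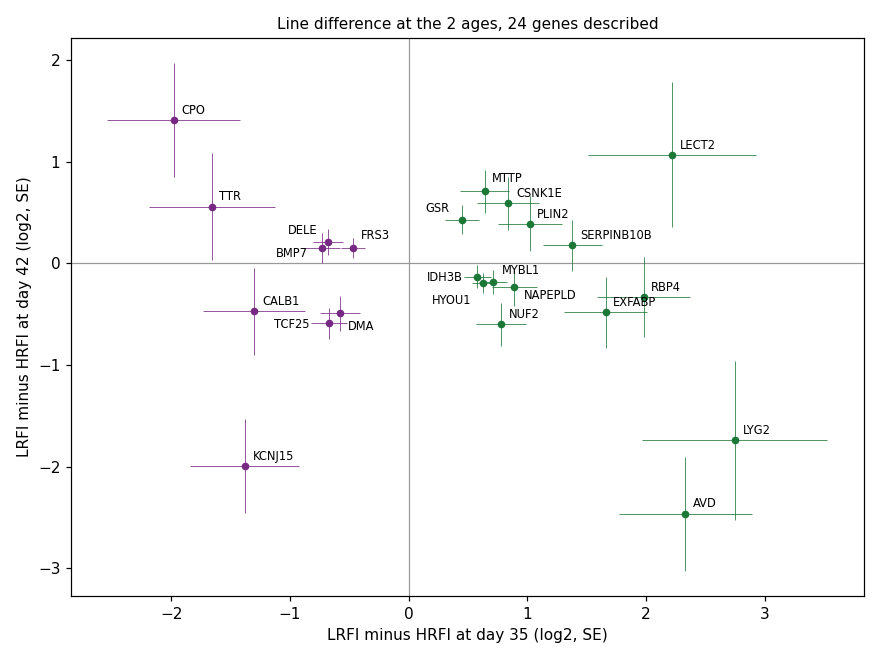
Difference between the lines, LRFI minus HRFI on the log2 scale, at day 35 (horizontal) and day 42 (vertical) for 24 genes described, with the standard error of each from the fit. TCF25, DMA, KCNJ15, MTTP, GSR and CSNK1E lie in the quadrants of equal sign, and AVD (2.33 and −2.46), LYG2 and CPO in those of opposite sign.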

How the data were processed

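Per the labels' protocols, total RNA of duodenum was extracted with Trizol and hybridized as biotin-labelled cRNA to one-colour Affymetrix chicken arrays. The authors deposited log2 values made with Partek 6.5 and RMA, per the submitters' processing notes; RMA corrects background, quantile normalizes arrays and summarizes probes, which compresses differences of dim probe sets. They were used unchanged, and ran from 2.10 to 14.75, with array medians of 5.05 to 5.11. Arrays have no read depth, so their number limits precision (median SE of a difference 0.12). After 96 control probe sets were left out, a model with 1 mean for each line and age was fitted to all 16 arrays (limma 3.58.1, R 4.3.3), tested on simulated data, and adjustment was by Benjamini-Hochberg across 38439 probe sets. Symbols came from the platform annotation; Entrez identifiers matched 26853 probe sets to RefSeq genes of GRCg7b.

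The comparison, the 54 gene lists and the rule for named genes were chosen with earlier results of these data known. The rule took the 15 smallest p in each direction, the 10 smallest without HRFI replicate 3 and the 10 largest differences without overlap. It also took up to 6 members of each list by p. A selection of these is described, and of the 15 smallest p in each direction fewer lower than higher genes are described. ANPEP, SI, SLC5A1, FABP2 and FABP6 were chosen after their values were seen. Replicate numbers were not treated as a pairing in the main fit, and the labels do not say whether they mark one. Same-numbered day 35 arrays of the lines had deviations correlated at 0.31, −0.11, 0.25 and −0.16, which cannot settle it. Lists carry counts and medians, with no test. Alternatives were other variance models, covariates, scaling, a filter on level and arrays left out; counts of list members without arrays were added after seeing the data.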

Additional observations from a re-analysis of the deposited data

Results flagged for a closer look

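In 19 of 284 groups of 4 arrays, over the genes described other than SEC24D and ATP5G1, 1 array lay apart from the other 3 by more than Dixon's criterion for an outlier allows. Chance alone gives about 1 in 20. Among LRFI arrays, SOCS3 read 10.31 on replicate 2, where the others read 7.88 to 8.04, and RPS6KB1, a growth kinase, read 7.74 there, where the others read 7.29. CCL4 read 6.17 on replicate 1 (others 7.29 to 7.49), and ADRM1 2.98 (others 3.88 to 4.03). TTR read 6.42 on replicate 3 (others 7.81 to 8.02), and TCF25 5.84 (others 6.31 to 6.40). On replicate 4, CD8BP read 7.31 (others 6.74 to 6.80), FABP2 11.30 (others 11.55 to 11.58) and PSPH 6.86 (others 6.65 to 6.68).

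Among HRFI arrays, replicate 1 read 12.73 for BCO1 (others 12.18 to 12.23), 4.34 for CPT1A (others 3.79 to 3.85) and 12.32 for FBP1 (others 12.72 to 12.76). Replicate 2 read 12.23 for HSPD1 (others 11.67 to 11.74), 6.54 for NUF2 (others 7.16 to 7.29) and 12.34 for CALB1 (others 13.06 to 13.17). Replicate 3, the array with pancreatic enzymes, read 5.08 for E2F8 (others 5.43 to 5.49) and 8.27 for PLIN2 (others 9.10 to 9.23). Replicate 4 read 11.24 for HSPA9 (others 11.41 to 11.45) and 8.67 for LYGL (others 6.14 to 6.57).

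In 6 genes all LRFI arrays lay above all HRFI arrays at day 35 and below them at day 42. At day 42 the gap was very narrow for HYOU1 and IDH3B. The differences at day 35 were 2.33 for AVD, 0.78 for NUF2, 0.65 for ATP1B3, 0.63 for HYOU1, 0.58 for IDH3B and 0.56 for PGD, and at day 42 they were −2.46, −0.60, −0.33, −0.19, −0.13 and −0.25. The interaction of line and age did not pass for any of them (limma, adjusted p = 0.354 for AVD, 0.518 for HYOU1 and 0.539 for the other 4). Over all 38439 probe sets, 12 showed this reversal and 20 the opposite one. Chance alone separates the lines in 2.86% of probe sets at each age, and so in opposite directions in some. The number expected was not taken, and these reversals are a description only.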

How the results depend on the processing

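No probe set passed at day 35 with only the day 35 arrays, trend and robust variances, or the actin difference as a covariate. None passed with a filter on level, with arrays centred on their median, or without the 5 arrays with an actin difference over 1. The same held without the 2 arrays with pancreatic enzymes, HRFI replicate 3 of day 35 and LRFI replicate 2 of day 42. With 1 day 35 array left out, 0 to 5 passed (5 without LRFI replicate 1, 4 without HRFI replicate 2, 1 without LRFI replicate 3 or 4 or HRFI replicate 4), 0 to 3 where HRFI replicate 3 was also left out, and 0 to 8 for the interaction. With the replicate number as a block 0 passed in each of the 3 comparisons, and 2518 had an unadjusted p under 0.05 at day 35; no call changed.

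Apart from the filter on level, unadjusted p under 0.05 at day 35 numbered 1773 (only the day 35 arrays) to 2990 (without HRFI replicate 1). The filter on level, which tests fewer probe sets, left 1413, or 1133 without HRFI replicate 3 and 1209 for the interaction. Probe sets without overlap numbered 1928 to 2344 with 1 array left out, which asks less of each line, and 1094 with centred arrays, 543 above and 551 below.

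Of 142 of the genes named, which do not include SEC24D and ATP5G1, 6 changed direction under some alternative. Without the 5 arrays with an actin difference over 1, AURKB turned to −0.13, DHRS3 to 0.02, FABP6 to −0.36, LY6E to −0.05, SI to 0.29 and SLC5A1 to 0.21, and the medians of mitosis to −0.11, DNA replication to −0.04, brush border peptidases to 0.26 and sugar uptake to 0.20. With 1 array left out SI ranged from −0.29 to 0.05 (without LRFI replicate 4). The cause was not tested. Values at the low end, such as BMP7 and KIF20B, are limited by signal over background.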

Other observations

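Hormone and signalling genes held a few further differences, none of which passed. Of 20 enteroendocrine genes, 3 had an unadjusted p under 0.05 with the higher mean in LRFI and 1 with the lower. GCG, which encodes proglucagon, read 4.52, 4.66, 5.38 and 6.70 in LRFI, against 4.09, 4.02, 4.48 and 4.11 in HRFI, with no overlap but with its highest values on LRFI replicates 3 and 4; its other probe set differed by −0.03. PCSK1, which cuts prohormones, differed by 0.52 without overlap (its other probe sets by −0.03 and 0.24), and NTS, neurotensin, by 0.56. AGR2, a folding enzyme of goblet cells, differed by 0.28 and MYO1A, a brush border myosin, by 0.47.

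Among 41 genes of BMP, Wnt and Hedgehog signalling, 1 had the higher mean with an unadjusted p under 0.05 and 3 the lower. FZD6, a Wnt receptor, read 5.02, 5.19, 5.02 and 4.66 in LRFI, against 6.07, 5.15, 6.14 and 5.65 in HRFI, and SFRP1, a secreted Wnt inhibitor, differed by −0.39. WNT5A differed by 0.46, and by 0.30 without HRFI replicate 3. NR1I3, a receptor that senses foreign compounds, differed by −0.39, RXRA, its partner, by −0.26 without overlap, and PPARD, a fatty acid receptor, by 0.48. PRKAB1, a subunit of the energy sensor AMPK, differed by −0.36 and RPS6KB1 by 0.32, while its other probe set differed by −0.26. ELOVL6, which lengthens fatty acids, differed by 0.51, and VCAN, a matrix proteoglycan, by 0.63. ATF6B, a sensor of ER stress, averaged 6.84 in LRFI and 6.45 in HRFI, with HRFI replicate 4 lowest at 5.77. ERO1A, which re-oxidizes disulfide isomerases, differed by 0.31 and its other probe set by −0.09.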
